A study of Mus musculus with 6 samples.

Results

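The protein disulfide isomerase family was followed as 10 genes out of the 19936 tested. They were P4hb, Pdia3, Pdia4, Pdia5, Pdia6, Txndc5, Txndc11, Erp44, Erp29 and Tmx1, taken by symbol from a list of thioredoxin-fold proteins of the endoplasmic reticulum (ER). No cut-off on values was used, but the list was drawn up with earlier results of these data known. Each of the 10 genes was found on the array and was represented by its brightest probe set. RNA was read on 6 Affymetrix arrays, 3 of wild type and 3 of Sel1L knockout colon epithelium, all from male C57BL/6J mice 8 weeks old. The knockout, named Sel1L-delta-IEC, carried floxed Sel1l alleles with loxP sites around exon 6, a lacZ-neo cassette removed earlier by β-actin-driven FLPe, and a Cre transgene under the villin-1 promoter, which acts in intestinal epithelial cells and leaves other cells of the preparation with Sel1l. The labels do not say whether wild type mice carried floxed alleles or Cre, nor whether an array stands for 1 mouse. The p-values therefore measure the spread between arrays, which may be technical.

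Proteins that enter the ER fold in an oxidizing lumen, where pairs of cysteines are joined into disulfide bonds. Protein disulfide isomerases carry thioredoxin domains whose active cysteines form, break or exchange these bonds, and ER oxidases such as Ero1 recharge them. Sel1L links misfolded substrates to Hrd1, a ubiquitin ligase in the ER membrane, through which such ER proteins are taken out for degradation, and isomerases can open disulfides before removal. The colon epithelium holds secretory goblet cells that make disulfide-linked mucin, so folding of cysteine-rich cargo is a regular task of this tissue.

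Knockout and wild type were compared on the log2 scale of RMA, the array summary used by the submitters, with limma across all genes and Benjamini-Hochberg adjustment. Calls were made where the adjusted p was under 0.05, and rose or fell is written of called genes alone. Of the 10 genes, 4 rose in the knockout and none fell: Pdia6, Pdia4, P4hb and Txndc11. Over all genes 1.63% were called, 0.918% higher and 0.712% lower. All 10 members lay above the median of the array values, 6.34, as did 10912 of all 19936 genes. In a fit without the dimmest 50% of genes, 6 of the 10 and 598 of 9968 genes were called. With the 13 further genes of the family described below, 4 of 23 were called, or 17.4%, with a median change of 0.095. The median change of the 10 genes was 0.31, and 9 of 10 had a positive change, against a median of 0.019 and 57.2% positive over all genes. In 7 of the 10 each knockout array lay above each wild type array, which was so for 11.4% of all genes. Sel1l itself read 9.45, 9.67 and 9.54 in wild type and 8.70, 9.06 and 8.66 in the knockout. All its knockout arrays lay below all wild type arrays, which was so for 7.98% of all genes. Sel1l fell, with a change of -0.74 ± 0.11 (SE), or 0.598-fold (limma's adjusted p = 0.018). The call held in 2 of the 6 fits with an array left out (adjusted p up to 0.087).

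Promoters are shown for 5 of the genes, because the ER stress transcription factors ATF6 and XBP1 are known to act through short elements near gene starts. RefSeq windows of assembly GRCm38.p6, from 250 bases before to 50 after a start, matched 9 of the 10 genes with 13 windows. Both strands were searched for the ER stress response element, ERSE, spelled CCAAT, then 9 free bases, then CCACG. An exact ERSE was in the Pdia6 window and in 0.119% of all 32851 windows. With at most 1 mismatch it was in the windows of Pdia6, Pdia4, Pdia3 and Erp44, 4 of 9 genes, against 1.72% of all 27025 genes with a window. Capitals mark these matches in the 150 bases before the start, at chr12:17266439-17266588 (plus strand) for Pdia6, chr6:47813513-47813662 (minus strand) for Pdia4, chr2:121413752-121413901 (plus strand) for Pdia3 and chr4:48279636-48279785 (minus strand) for Erp44.
Pdia6: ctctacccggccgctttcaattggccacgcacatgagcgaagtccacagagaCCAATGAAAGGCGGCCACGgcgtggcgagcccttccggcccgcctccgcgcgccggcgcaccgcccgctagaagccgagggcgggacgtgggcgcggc
Pdia4: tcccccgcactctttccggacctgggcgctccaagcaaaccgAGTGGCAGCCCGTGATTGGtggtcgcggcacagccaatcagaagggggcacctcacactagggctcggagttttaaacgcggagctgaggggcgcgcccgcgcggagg
Pdia3: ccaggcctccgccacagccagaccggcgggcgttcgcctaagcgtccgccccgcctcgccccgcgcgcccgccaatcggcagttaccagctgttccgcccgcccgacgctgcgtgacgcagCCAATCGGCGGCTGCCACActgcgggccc
Erp44: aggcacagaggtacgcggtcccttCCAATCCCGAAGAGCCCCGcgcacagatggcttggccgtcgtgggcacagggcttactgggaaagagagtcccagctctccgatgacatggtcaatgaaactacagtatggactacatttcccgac

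Counted from 1 at the 5′ end of the element, the substitution was G19T in Pdia4, whose match is on the opposite strand of the printed line, G19A in Pdia3 and A17C in Erp44. The match began 98 bases before the start in Pdia6, 29 in Pdia3 and 126 in Erp44, and in Pdia4 it lay 108 to 90 bases before it. Pdia6 and Pdia4 were called, whereas Pdia3 and Erp44 were not, so a near match was found on both sides of the threshold. P4hb, Pdia5, Tmx1, Txndc5 and Txndc11 had no match with at most 1 mismatch in these windows. The UPRE, an XBP1 and ATF6 motif searched as TGACGTGG, was in a window of Txndc11 and in a window of Txndc5. That made 2 of 13 windows, against 0.676% of all windows. Txndc11 was called and Txndc5 was not, so the UPRE too was found on both sides of the threshold. It lay 138 to 131 bases before an annotated start in Txndc5, not printed here. In Txndc11 it is in capitals within chr16:11134616-11134645 (minus strand), which lies before one annotated start but inside the extent of the gene.
Txndc11: tgaagtgtggcTGACGTGGagagtccgggt

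Neither ERSE-II, spelled ATTGG, 1 free base and CCACG (0.0365% of all windows), nor an ATF4 composite element searched as TTGCATCA (0.895%) was found in the members' windows. The UPRE holds the reverse complement of the second part of the ERSE, so matches to both motifs can share bases. CCAAT alone was in windows of 6 of the 9 genes, against 41.1% of all 27025 genes with a window. A match is a description of letters, and factor binding was not measured.

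Among the soluble oxidoreductases of the lumen, Pdia6 had the largest change of the 10 genes. Pdia6, known as P5, works with the chaperone BiP and can act on the stress sensor IRE1α. It read 9.41, 9.59 and 9.58 in wild type and 10.56, 10.39 and 10.45 in the knockout, on the log2 scale. The lowest knockout array was 0.795 above the highest wild type array. The rise was 0.94 ± 0.075 (SE), or 1.92-fold with a 95% interval of 1.7 to 2.16 (limma's adjusted p = 0.0026). The change ranked 8 by p among all genes tested. Its promoter is the one above with the exact ERSE, and a link of that element to the change was not tested.

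Pdia4, known as ERp72, carries an additional thioredoxin domain and also acts on secretory cargo in the lumen. Wild type arrays read 10.80, 11.06 and 10.85, and knockout arrays 11.76, 11.56 and 11.57. The groups were separate, with wild type array 2 and knockout array 1 each the highest of its group. Pdia4 rose by 0.72 ± 0.089 on the log2 scale, or 1.65-fold (limma's adjusted p = 0.0099). It is the only one of the 10 with a second probe set, a dimmer one, which read 6.27, 7.07 and 6.64 in wild type and 7.85, 7.98 and 7.84 in the knockout. That probe set gave a rise of 1.23 ± 0.17 (limma's adjusted p = 0.015 over all probe sets with 1 gene), so both pointed up with unequal sizes.

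P4hb encodes the founding protein disulfide isomerase, which is also the shared subunit of collagen prolyl 4-hydroxylase and of the microsomal triglyceride transfer complex. Its values were 11.04, 11.06 and 11.22 in wild type and 11.74, 11.65 and 11.64 in the knockout. All knockout arrays were higher, by at least 0.415 between the nearest arrays. P4hb rose by 0.57 ± 0.072, or 1.49-fold with an interval of 1.33 to 1.67 (limma's adjusted p = 0.01). The call ended without wild type array 2 (adjusted p = 0.0503) or knockout array 1 (adjusted p = 0.054), at changes of 0.55 and 0.54.

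Pdia5 and Txndc5 are soluble isomerases as well. Pdia5, known as PDIR, has been linked to opening of the disulfides that hold ATF6. It read 9.89, 9.86 and 10.06 in wild type and 10.22, 10.20 and 10.11 in the knockout, where the nearest arrays were 0.0451 apart. The difference of 0.24 ± 0.073 had an interval of 0.07 to 0.40 and was not called (limma's adjusted p = 0.2). Txndc5, known as ERp46, introduces disulfides rapidly into unfolded chains. It read 10.37, 10.35 and 10.57 in wild type and 10.59, 10.58 and 10.51 in the knockout, so the groups overlapped at wild type array 3. Its difference of 0.13 ± 0.075 was not called (limma's adjusted p = 0.53), and the interval of -0.046 to 0.30 leaves room for a rise of up to 1.23-fold.

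Pdia3, known as ERp57, is the isomerase brought to glycoproteins by calnexin and calreticulin, and it is part of the class I peptide-loading complex with tapasin. Wild type arrays read 11.18, 11.39 and 11.21 and knockout arrays 11.63, 11.55 and 11.51. The knockout arrays were all higher, by 0.124 between the nearest arrays. The difference of 0.31 ± 0.074, with an interval of 0.14 to 0.47, did not pass (limma's adjusted p = 0.1).

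Erp29 encodes a thioredoxin-fold chaperone that lacks the pair of catalytic cysteines. It read 7.14, 7.18 and 7.07 in wild type and 7.48, 7.42 and 7.41 in the knockout. These tight groups lay 0.23 apart at their nearest arrays. The difference of 0.31 ± 0.06 stood just outside the threshold (limma's adjusted p = 0.051). Erp29 was called in 5 of the 15 alternative fits and not in the other 10, with adjusted p from 0.015 to 0.18.

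Txndc11 and Tmx1 are anchored in the ER membrane, and their differences had opposite signs. Txndc11, also named EFP1, binds the dual oxidases that make hydrogen peroxide at the epithelial surface, and it pairs with the EDEM proteins that mark glycoproteins for degradation. It read 8.24, 8.18 and 8.18 in wild type and 8.69, 8.78 and 8.56 in the knockout. The knockout arrays were all higher and more spread, with SDs of 0.11 against 0.0357. Txndc11 rose by 0.48 ± 0.071, or 1.39-fold (limma's adjusted p = 0.018). Leaving out array 1 or 2 of either genotype ended the call, at adjusted p values of 0.061 and 0.075 for wild type and 0.084 and 0.065 for the knockout.

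Tmx1, a transmembrane oxidoreductase that works on membrane-bound cargo, was the only one of the 10 with a negative difference. Its values were 9.54, 9.65 and 9.54 in wild type and 9.55, 9.37 and 9.36 in the knockout. Knockout array 1 lay among the wild type arrays and the other two below them. The difference of -0.15 ± 0.074 was not called (limma's adjusted p = 0.45), with an interval of -0.32 to 0.022 that holds no rise above 1.02-fold.

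Erp44 cycles to the early secretory pathway and holds back proteins that lack their own retention signal, among them the Ero1 oxidases. It read 9.24, 9.51 and 9.32 in wild type and 9.50, 9.38 and 9.23 in the knockout. The groups lay on top of each other. The difference was 0.015 ± 0.094 (limma's adjusted p = 0.97), and its interval of -0.20 to 0.23 extends from 0.87-fold to 1.17-fold. Its sign changed with the array left out, from -0.05 to 0.091.

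**Figure D1:**
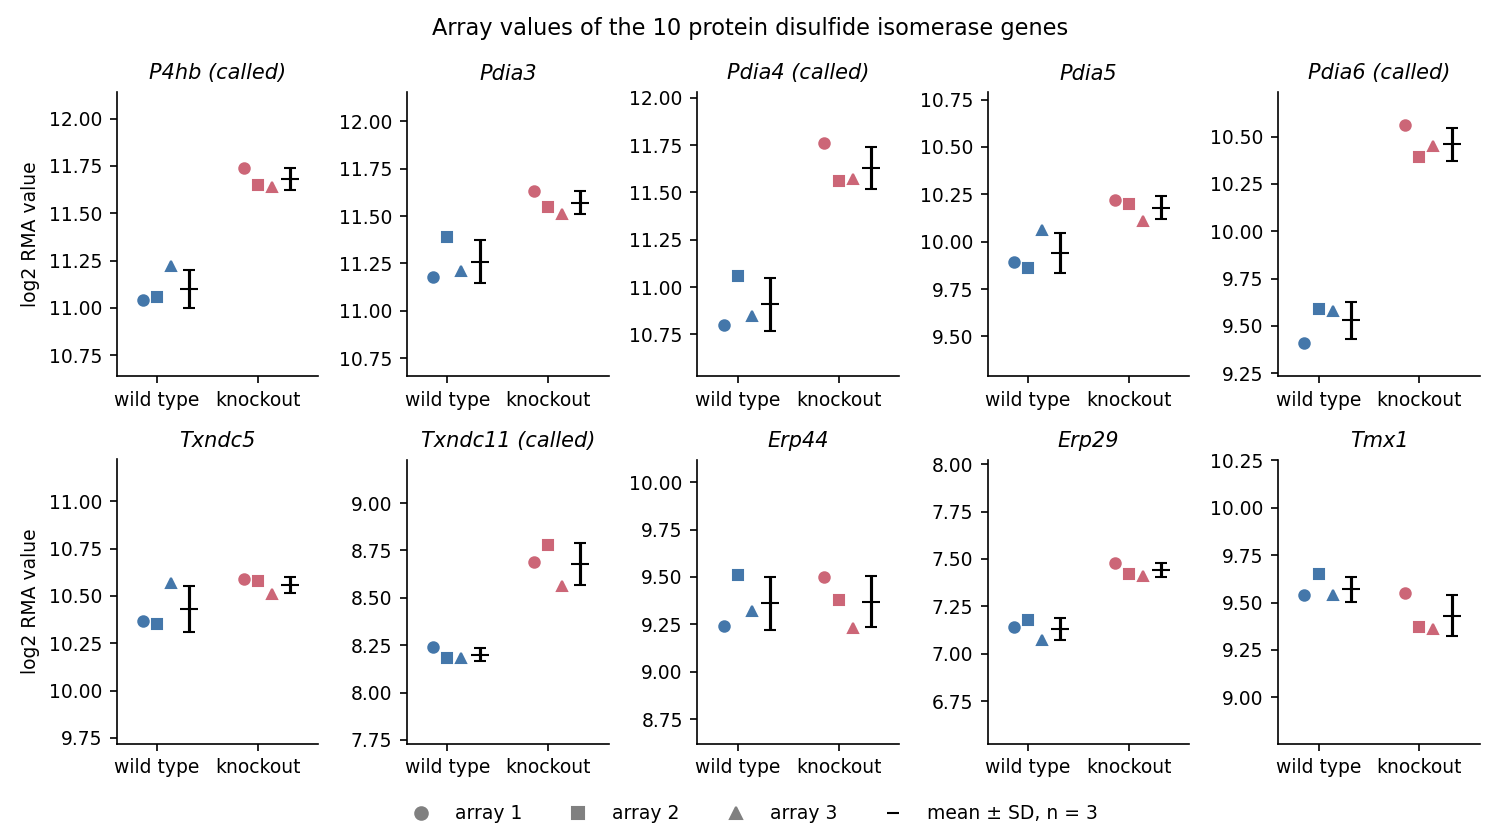
Log2 RMA values of the 10 genes in each array, in panels that each span 1.5 log2 units around the gene's own values. Blue points are wild type and red points knockout, shapes give the array number, and black bars are mean ± SD of 3 arrays. Pdia6, Pdia4, P4hb and Txndc11, marked as called, show separate groups, while the groups of Txndc5, Erp44 and Tmx1 overlap.

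Within the knockout, array 1 had the highest value in 9 of the 10 genes and array 3 the lowest in 8. The mean of the 10 genes, relative to each gene's wild type mean, was 0.43, 0.34 and 0.29 in knockout arrays 1, 2 and 3, and -0.058, 0.04 and 0.018 in the wild type arrays. The knockout arrays thus differed among themselves by less than they differed from wild type. The same order of knockout means was seen in lists described below, so it is not particular to the 10 genes. It held for the BiP group (0.53, 0.51 and 0.44), ER peptidyl-prolyl isomerases (0.30, 0.29 and 0.20) and thioredoxin-fold genes outside the ER (0.092, 0.059 and -0.004). It did not hold for 13 further genes of the family (0.042, 0.052 and 0.033), and its share over all genes was not counted. Without knockout array 1, or without wild type array 2, 2 of the 10 genes were called, Pdia4 and Pdia6. Without wild type array 1 or knockout array 2, Txndc11 alone was lost.

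**Figure D2:**
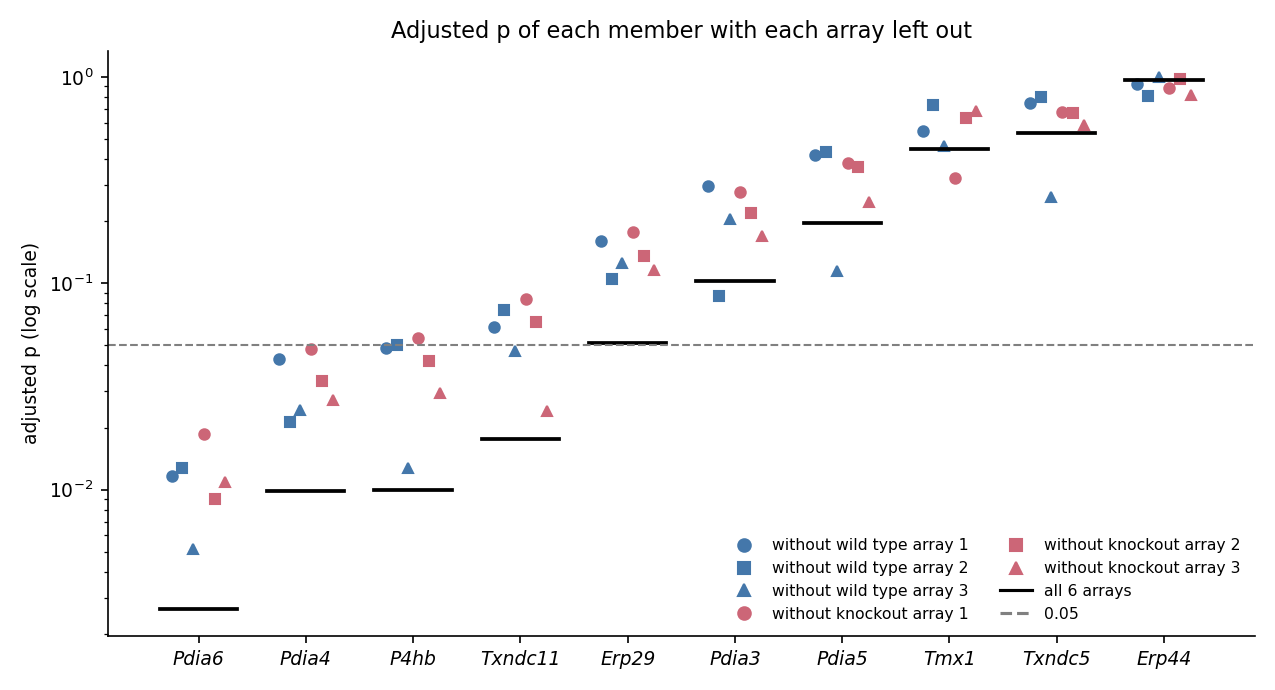
Adjusted p of each of the 10 genes (log axis) in the fit of all 6 arrays (black line) and with each array left out (points, coloured by genotype and shaped by array number). All points of Pdia6 and Pdia4 lie below the dashed line at 0.05, P4hb and Txndc11 have points on both sides, and no point of the other 6 genes lies below it.

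A further 13 genes of the family, fixed as a list of proteins with related domains, were measured and none was called by limma. At an unadjusted p under 0.05 there were 2, both higher, against 13.3% of all genes. Their median change was 0.011, with a range from -0.12 to 0.26. Of the 13, 7 lay above the median of the array values, 6.34, whereas all 10 members did. The largest change, 0.26, was that of Pdia2, which read below this median on every array. The lack of calls therefore says little about the genes of this list below the median. Agr2, the isomerase-like protein needed for mucin in goblet cells, read 12.74, 12.75 and 12.73 in wild type and 12.90, 12.84 and 12.83 in the knockout. These arrays did not overlap, but the difference of 0.11 ± 0.056 was not called (limma's adjusted p = 0.44) and its interval ends at 0.24. The upper bound corresponds to 1.18-fold.

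Among 9 genes of ER oxidation, which supply or relay oxidizing equivalents, 2 rose, none fell, and the median change was 0.14. Ero1b, an oxidase that recharges the isomerases, read 6.58, 6.52 and 6.34 in wild type and 7.32, 7.32 and 6.99 in the knockout. It rose by 0.73 ± 0.11 (limma's adjusted p = 0.016). Ero1a, the more widely expressed paralog, read 9.74, 9.89 and 10.14 against 10.35, 10.46 and 10.47. Wild type array 3 was the closest to the knockout, and the difference of 0.50 ± 0.1 just missed the threshold (limma's adjusted p = 0.055), passing without that array (adjusted p = 0.018). Qsox1, a sulfhydryl oxidase of the later secretory pathway, rose by 0.46 ± 0.075 (limma's adjusted p = 0.025). Prdx4, the ER peroxiredoxin that uses hydrogen peroxide to oxidize isomerases, had a difference of -0.22 ± 0.098 and was not called (limma's adjusted p = 0.39). Neither Ero1b nor Qsox1 passed once array 1 or 2 of either genotype was left out, where their adjusted p reached 0.079 and 0.11.

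**Figure D3:**
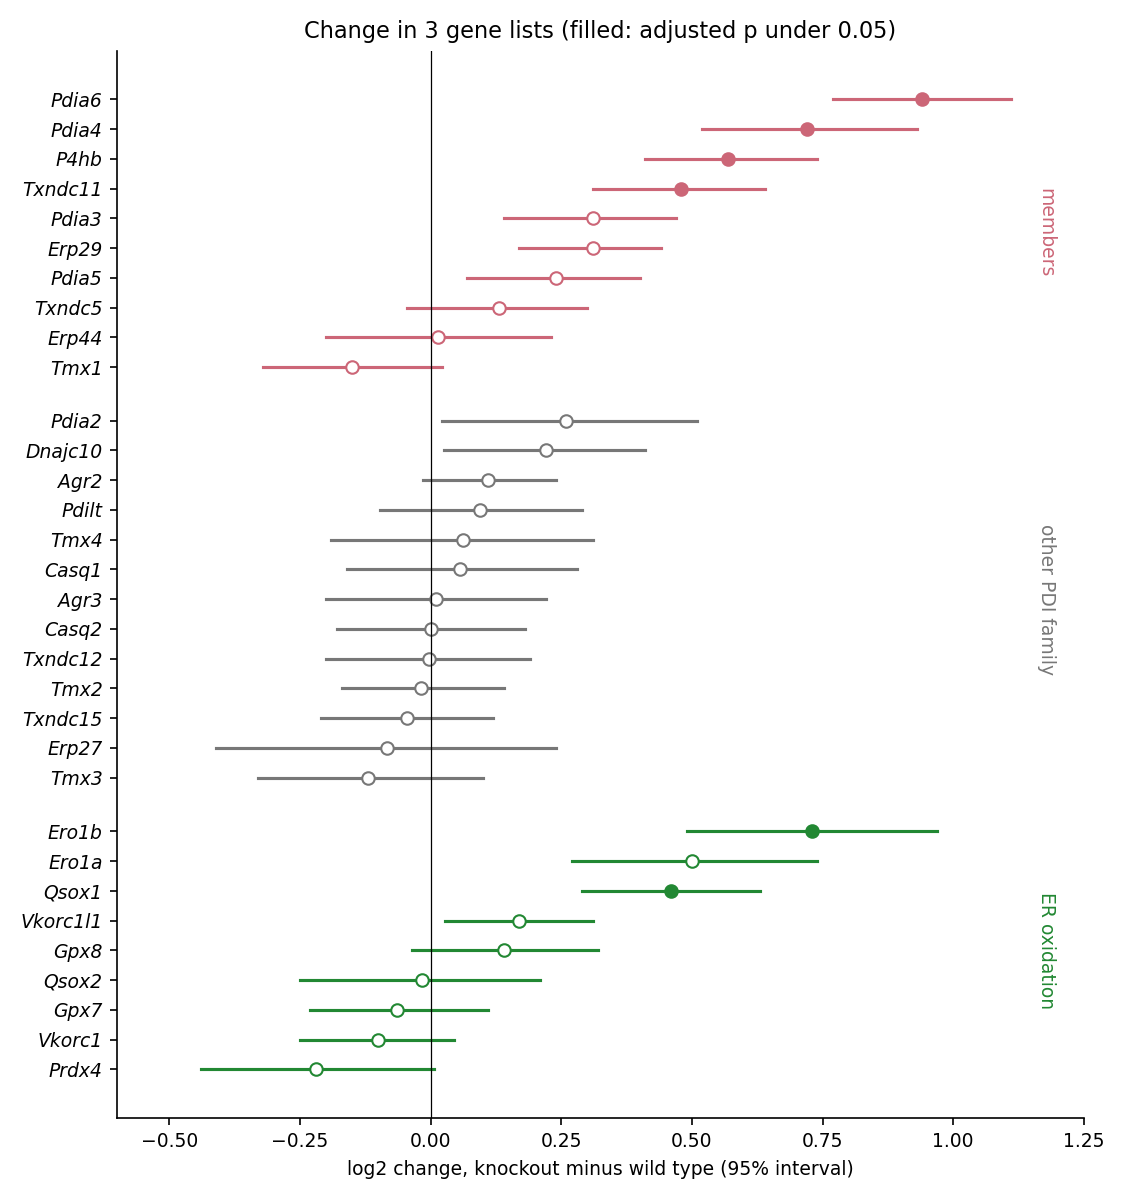
Log2 change (knockout minus wild type, x axis) with 95% intervals from limma for the 10 members, the 13 other genes of the family and the 9 genes of ER oxidation. Filled points were called. The 4 called members and the called Ero1b and Qsox1 lie between 0.46 and 0.94, and no other gene of the family is filled.

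None of 7 genes for ER selenoproteins and the methionine sulfoxide reductase Msrb3 was called by limma, with 3 higher at an unadjusted p under 0.05 and a median change of 0.14. Of 19 measured genes that encode partners or clients of the 10 proteins, 5 rose and 2 fell, with a median of 0.047. Both partners of Pdia3 that hold glycoproteins had positive differences. Calr, which encodes calreticulin, rose by 0.39 ± 0.058 (limma's adjusted p = 0.017), and Canx, which encodes calnexin, differed by 0.20 ± 0.061 without a call (limma's adjusted p = 0.19). Tapbp, which encodes tapasin, the partner of Pdia3 in peptide loading, instead fell by 0.55 on the log2 scale, from 10.46, 10.45 and 10.54 to 9.82, 10.01 and 9.97 (limma's adjusted p = 0.01). The difference of Pdia3, not called, had the opposite sign.

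The glycoprotein folding sensor gene Uggt1 rose by 0.37 ± 0.059 (limma's adjusted p = 0.023). Edem2, a mannosidase gene whose product pairs with Txndc11, rose by 0.49 ± 0.066 (limma's adjusted p = 0.012). Duox2, the gene of the dual oxidase that binds Txndc11, fell by 0.44 on the log2 scale (limma's adjusted p = 0.041), so Txndc11 and this partner moved in opposite directions. Duox2 read 10.37, 10.53 and 10.47 in wild type and 9.88, 10.13 and 10.05 in the knockout.

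Of the stress sensors that isomerases act on, Atf6, which encodes the membrane factor linked to Pdia5, rose by 0.46 ± 0.061 (limma's adjusted p = 0.012), and Ern1, which encodes IRE1α, differed by -0.015 ± 0.086 (limma's adjusted p = 0.96). Hspa5, the gene of BiP, read 11.54, 11.82 and 11.55 in wild type and 12.51, 12.54 and 12.41 in the knockout, a rise of 0.85 ± 0.087 (limma's adjusted p = 0.0064). Hspa5 and Tapbp passed whichever array was left out. Uggt1 and Duox2 lost their calls each time (adjusted p up to 0.1 and 0.14). Calr kept it only without wild type array 3 (up to 0.084), and Edem2 and Atf6 lost it when array 1 or 2 of either genotype was dropped (up to 0.066 and 0.063).

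Other ER folding genes and a group with the same fold outside the ER give the setting. Among 16 genes of BiP, GRP94 and their cochaperones, 8 rose and none fell, with a median of 0.53. Hspa5 was also counted among the 19 partners or clients, and without it 7 of 15 rose, with a median of 0.42. The 8 were Hspa5, Sdf2l1 (1.17), Creld2 (0.99), Hyou1 (0.87), Manf (0.74), Hsp90b1 (0.68), Dnajb9 (0.66) and Dnajc3 (0.63), as log2 changes. Whichever array was left out, the other 7 passed, and Dnajb9 failed without array 1 of either genotype (adjusted p up to 0.073). Pdia6, at 0.94, lay within the range of these changes.

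Among 7 ER peptidyl-prolyl isomerases, which turn proline bonds in folding chains, 2 rose, Fkbp11 (0.65 ± 0.1) and Fkbp2 (0.37 ± 0.069), with limma's adjusted p of 0.021 and 0.043 and a list median of 0.24. Fkbp11 failed when array 1 or 2 of either genotype was dropped (adjusted p up to 0.088). Fkbp2 kept it only without wild type array 3 (up to 0.15 otherwise), and lost it when arrays were centred on their medians (adjusted p = 0.063). Among 12 thioredoxin-fold proteins of the cytosol, nucleus and mitochondria, limma called none, none had an unadjusted p under 0.05, and the changes ran from -0.06 to 0.13. Differences between lists were not tested.

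**Figure D4:**
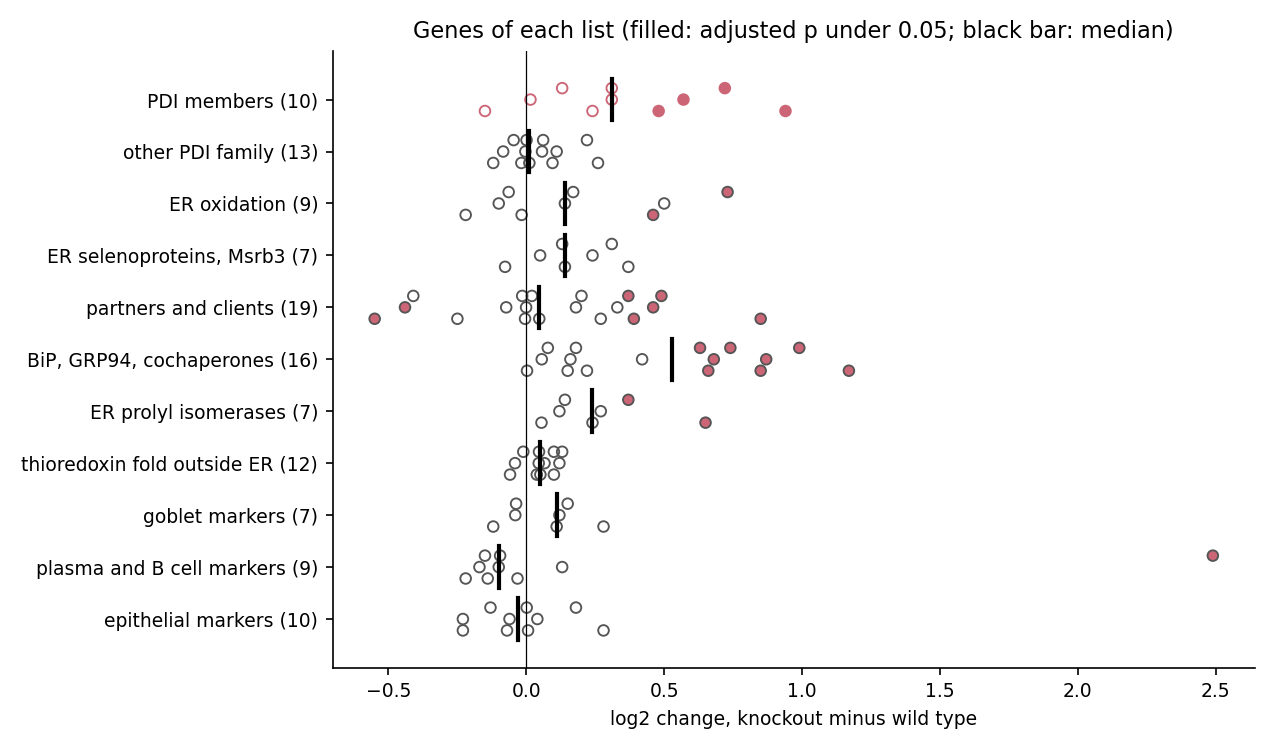
Log2 change (knockout minus wild type, x axis) of the genes in 11 lists, with the number measured in brackets, filled points for called genes and a black bar for each list's median. The bar of the 10 members lies at 0.31, between those of the BiP group at 0.53 and the prolyl isomerases at 0.24, and all points of the thioredoxin-fold genes outside the ER lie between -0.06 and 0.13.

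The epithelial label was checked with 10 markers such as Epcam, Cdh1 and keratins, and all lay above the median of the array values, 6.34. So did 10912 of all 19936 genes, which makes this a weak check. Limma called none of the 10, and their median change was -0.03. At an unadjusted p under 0.05 there were 3, Epcam (-0.23) and Cdh1 (-0.23) lower and Cdx2 (0.28) higher. The arrays of these 3 did not overlap, against 7.98% of all genes wholly below and 11.4% wholly above. Secretory cells are rich in isomerases, and more or less RNA per cell cannot be told apart from more or fewer such cells in bulk tissue. Goblet cell markers, 7 measured, had none called and 1 at an unadjusted p under 0.05, with summed levels of 15.48 to 15.57 in wild type and 15.52 to 15.57 in the knockout (log2 of the sum). Of 9 plasma and B cell markers 1 was called, Derl3, which is also a gene of ER-associated degradation and read higher in the knockout, and 2 lay above the array median. The other is Sdc1, which epithelium also expresses and which made up most of the list's summed level without Derl3, 10.50 to 10.53 in wild type and 10.39 to 10.45 in the knockout. The remaining 7 read between 3.47 and 6.25 on every array, below the array median, so this list does not measure plasma or B cell content here, whose part in the result was not tested. Absorptive cell markers were mostly lower where the isomerases were higher, with a median change of -0.41 over 7 genes. Aqp8 (-0.80) and Atp12a (-0.81) fell and Mt1 (1.87), which encodes a metallothionein, rose, while 6 of the 7 had an unadjusted p under 0.05. Aqp8 kept its call only without array 3 of either genotype (adjusted p up to 0.13 otherwise). In 5 of the 7, Slc26a3 (-0.36), Car4 (-0.52) and Ceacam20 (-0.41) with the 2 that fell, all knockout arrays were lower than all wild type arrays, against 7.98% of all genes. Their summed level of 14.72 to 14.99 in wild type and 14.70 to 14.83 in the knockout overlapped, and it includes Mt1 and the bright Car1, which differed by 0.0058. The part of this shift in the result was not tested. Of 7 pancreatic acinar markers limma called 1, Cela1, which fell, and 1 of the 7 lay above the array median. Their summed level was 9.30 to 9.51 in wild type and 8.95 to 9.06 in the knockout, without overlap. The acinar list includes Pdia2, also one of the 13 further genes of the family. Of the markers of fibroblasts, macrophages and dendritic cells, T cells, smooth muscle and endothelium limma called none, with 3 at an unadjusted p under 0.05. Above the array median lay 4 of 8 fibroblast, 2 of 8 macrophage and dendritic cell, and 1 of 7 T cell markers. For smooth muscle and endothelium it was 2 of 8, so the lack of calls says little about the content of these cells.

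The genes outside the family most like the mean of the 10 across the 6 arrays were Sec22b (Pearson's r = 0.9983), Galnt3 (0.9973), Tmem67 (0.9964), Stt3a (0.9961) and Uso1 (0.9961). The 6 points fall into the same 2 genotypes and share their normalization, so these values only describe linear likeness across arrays, the step between genotypes included. Sec22b and Uso1 encode vesicle traffic proteins between ER and Golgi, Stt3a a subunit of the oligosaccharyltransferase, Galnt3 an O-glycosylation enzyme and Tmem67 a ciliary membrane protein. Their log2 changes were 0.45, 0.41, 0.38, 0.16 and 0.67 in that order, and Galnt3 was not called (limma's adjusted p = 0.26). Of the called ones, Stt3a lost its call whichever array was left out (adjusted p up to 0.12). Sec22b and Uso1 failed when array 1 or 2 of either genotype was dropped (up to 0.089 and 0.084), and Tmem67 without wild type array 1 or knockout arrays 1 or 2 (up to 0.056).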

How the data were processed

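Total RNA of colon epithelium was hybridised to 6 arrays. The authors deposited log2 values from RMA, per the submitters' processing notes; the scale was read from the values. Software version, probe set definition and build: not given in the sources used here. Array medians lay between 6.32 and 6.36. The platform annotation gave a single gene for 21789 of 35556 probe sets, and RefSeq updated the symbols. The brightest probe set by mean stood for each of 19936 genes, unfiltered. Genotype was tested with limma 3.58.1 in R 4.3.3 (lmFit, eBayes, two-sided, Benjamini-Hochberg over all genes), checked on simulated data; Python 3.11.15 made tables and plots. The number of arrays limits the precision, and no batch is named in the labels. The members and lists were chosen with earlier results of these data known. Named genes were the 10 members, called genes of 7 related lists, 10 fixed genes called or not (Agr2, Ero1a, Ero1b, Prdx4, Canx, Calr, Hspa5, Ern1, Atf6, Duox2) and the 5 genes most correlated with the members' mean. Sel1l and the cell type markers were named outside this rule. Alternatives were a replicate block, quantile normalization, median centring, array weights, an intensity trend, a robust prior, dropping the 25% or 50% dimmest genes, averaging probe sets per gene, and each array left out.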

Additional observations from a re-analysis of the deposited data

How the results depend on the processing

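Pdia6 and Pdia4 were called in each of the 15 alternative fits, P4hb in 13 and Txndc11 in 11. The count of called members was 4 with all arrays, 4 to 6 under the other settings, and 2 to 4 with an array left out, the 2 standing without wild type array 2 and without knockout array 1. The 6 came from leaving out the dimmest 50% of genes and from an intensity trend, which added Erp29 (adjusted p = 0.015 and 0.033) and Pdia3 (0.04 and 0.025). The count over all genes was 325 of 19936 tested, and 598 of 9968 tested without the dimmest 50% of genes. Of 19936 tested, it was 614 with an intensity trend and 69 to 303 with an array left out. Fewer genes tested and fewer arrays are part of those settings, and other causes were not tested. Titles number the arrays 1 to 3 in both genotypes, and deviations of equal numbers correlated at -0.10, 0.15 and 0.15. Wild type arrays 2 and 3 correlated best with the knockout array of the same number, and wild type array 1 with knockout array 3 (0.09). These values do not settle whether the numbers pair samples, and the main fit did not pair them. With a replicate block 4 members and 217 genes were called, and Ero1a passed (adjusted p = 0.044), while Calr, Qsox1, Uggt1, Fkbp2, Fkbp11, Sec22b, Stt3a and Uso1 did not (0.056 to 0.082). No called change of the 38 named genes reversed. Probe sets are not mapped to exons here, so transcripts of a gene are not told apart.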
